A study of Mus musculus with 16 samples.

Results

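The results below concern 8 of the 158 antibodies on a reverse-phase protein array, those whose target name is RPS6KA1, RPS6KA3, RPS6KA4, ELK1 or DUSP4. They cover 5 proteins, with 4 antibodies to total protein (RPS6KA1, RPS6KA4, ELK1, DUSP4) and 4 to phosphorylated sites (RPS6KA1_P-T573, RPS6KA1_P-S380, RPS6KA3_P-T353/T356, RPS6KA4_P-S235). The rule that picked them used target names and no measured values, but it was set with earlier results of these data known. On such an array, lysates are spotted and each antibody is read as a relative fluorescence intensity (RFI), so values can be compared between samples for 1 antibody and not between antibodies.

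The 16 samples were livers and liver tumors of male C3H/HeJ mice given diethylnitrosamine (DEN), a liver carcinogen. The arm given phenobarbital (PB), a tumor promoter in mouse liver, held 7 tumors with mutated Ctnnb1, the gene of β-catenin, and 3 control livers. The arm without PB held 3 tumors with mutated Ha-ras and 3 control livers. Since each tumor genotype came from 1 arm, genotype and PB cannot be told apart in a direct comparison of the tumors. The treatment is recorded in 3 ways. One text has DEN at 10 or 90 µg per g, at 2 or 6 weeks of age, before 28 to 36 weeks of diet with or without 0.05% PB. Another field has 27 weeks, and a protocol field has PB in drinking water for 28 days. Doses and ages could not be assigned to samples, so the arms may differ in these as well as in PB. The labels do not say that each sample is a separate animal, so p-values reflect only how these samples vary, and that variation may be technical. These are bulk lysates, in which fewer cells of a type and less protein per cell cannot be told apart.

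The proteins lie at the output end of the RAS-ERK cascade, in which RAS activates RAF, RAF activates MEK and MEK activates ERK by phosphorylation. RPS6KA1 (RSK1) and RPS6KA3 (RSK2) are RSK kinases with a pair of kinase domains in 1 protein: ERK docks on the carboxy-terminal end and phosphorylates the activation loop there (T573 of RSK1), that domain then phosphorylates a hydrophobic motif in the linker (S380 of RSK1), and the motif recruits the kinase PDK1 to the amino-terminal domain. RPS6KA4 (MSK2) is a related nuclear kinase that answers to ERK and to the stress kinase p38. ELK1 is a transcription factor that ERK phosphorylates and that drives immediate early genes, and DUSP4 (MKP2) is a nuclear phosphatase that removes phosphate from MAP kinases and whose gene is itself induced by ERK signalling.

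RefSeq, on mouse build GRCm38.p6, places Rps6ka1 at chr4:133847290-133887797, Rps6ka4 at chr19:6829084-6842145, Dusp4 at chr8:34807610-34819894, Elk1 at chrX:20933395-20950608 and Rps6ka3 at chrX:159255665-159368244. The same table gives both Rsk2 and p90RSK3 as synonyms of Rps6ka3, and Rsk3 as a synonym of Rps6ka2. Which RSK the RPS6KA3_P-T353/T356 antibody binds was not settled by the files, and it is named here as in them. No antibody to total RPS6KA3 was among the rows.

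The median antibody signal of a sample lay between 0.450 and 0.737 RFI, and the blanks (secondary antibody alone) had medians of 0.0811 to 0.138 RFI. Signals are given as relative signal, the RFI divided by the sample's own median antibody signal. Of the 8 antibodies, 6 could be tied to a blank. Total RPS6KA1 read 81.5 to 210 times its blank, RPS6KA1_P-T573 11.9 to 41.3 times, ELK1 9.72 to 31.4 times, RPS6KA4 4.04 to 7.80 times and RPS6KA3_P-T353/T356 2.31 to 6.13 times. DUSP4 read 1.39 to 2.38 times its blank and was under 2 times in 12 of 16 samples, including all 6 control livers, so no fold change or log2 difference is given for it against a control. HNF4A, a transcription factor of hepatocytes, read 2.03 to 3.53 in relative signal over all samples and was under 2 times its blank in 0 of them.

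**Figure D1:**
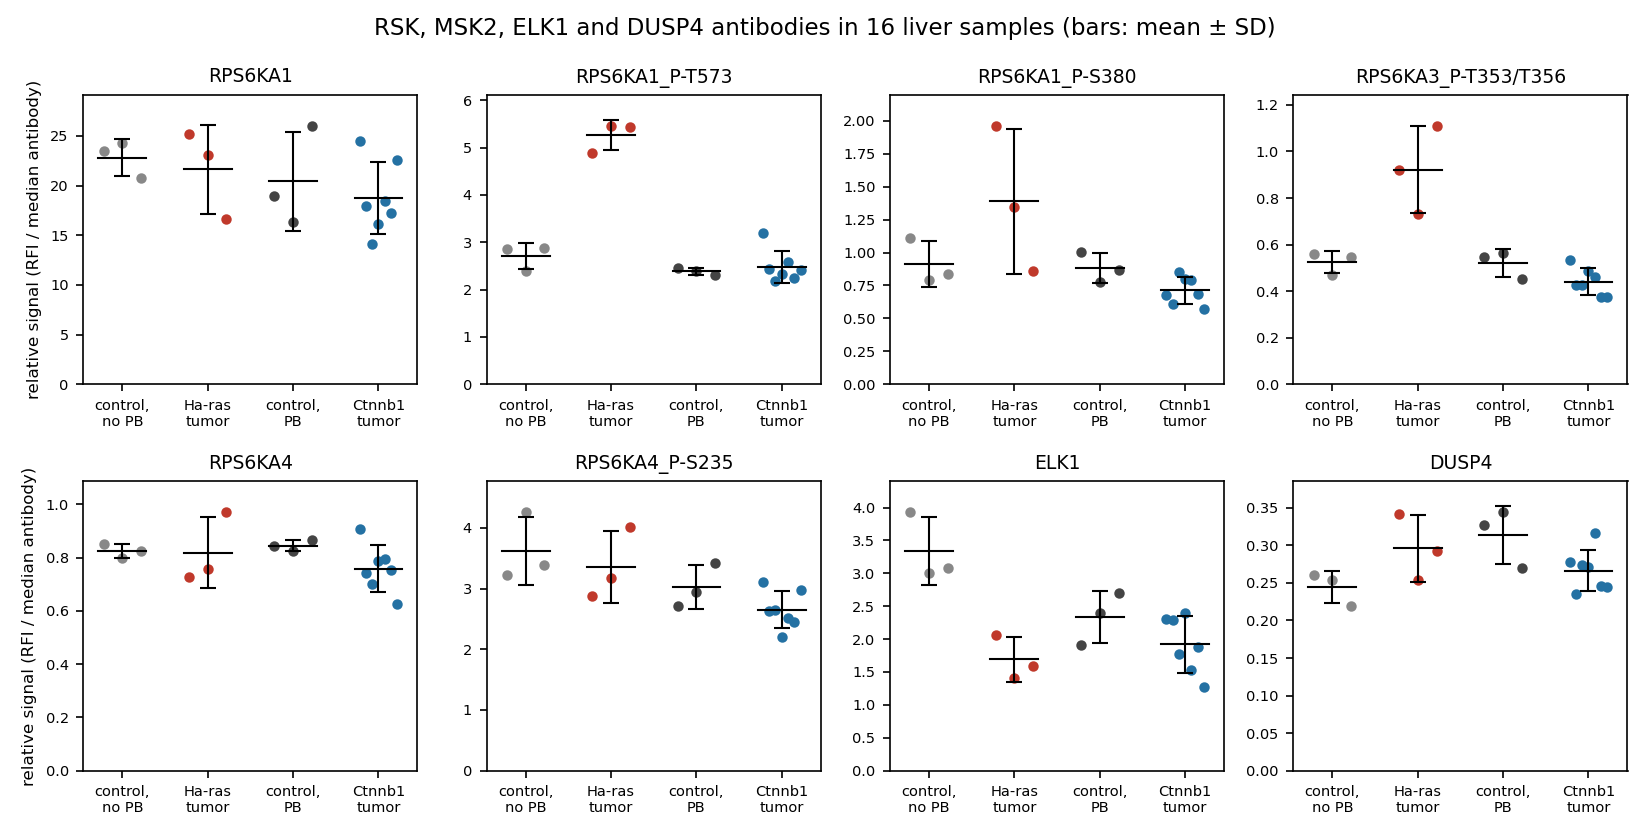
Relative signal (RFI divided by the sample's median antibody signal, linear axis from 0) of the 8 antibodies in each of the 16 samples, by group, with horizontal bars for the group mean and error bars for the SD. The Ha-ras tumors stand above every other sample for RPS6KA1_P-T573 (4.90 to 5.46) and RPS6KA3_P-T353/T356 (0.733 to 1.11), and 1 of the 3 lies among the controls for RPS6KA1_P-S380 (0.857).

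Ha-ras tumors against control livers without PB were compared first, to see which outputs of the cascade differ where its RAS is mutated. A pair of RSK sites rose, RPS6KA1_P-T573 by 1.94-fold and RPS6KA3_P-T353/T356 by 1.74-fold, and ELK1 fell by 1.99-fold. The totals of RPS6KA1 and RPS6KA4, the MSK2 site, DUSP4 and RPS6KA1_P-S380 did not pass the test. That is 2 members higher and 1 lower of 8, where 22 of all 158 antibodies passed (13.9%), 10.1% higher and 3.8% lower. Calls were made with limma at an adjusted p under 0.05, with Benjamini-Hochberg adjustment over the 158 antibodies.

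RPS6KA1_P-T573, the site that ERK itself phosphorylates, read 4.90, 5.46 and 5.44 in Ha-ras tumors 1 to 3 and 2.85, 2.40 and 2.89 in control livers 1 to 3 without PB. The lowest tumor lay well above the highest control, and the 3 tumors differed from each other by little. The log2 difference was 0.96 ± 0.13 (SE; limma adjusted p = 0.00022), and it stayed past the threshold under all 16 alternatives run.

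RPS6KA3_P-T353/T356 read 0.922, 0.733 and 1.11 in the tumors and 0.559, 0.470 and 0.547 in the controls. The groups again did not overlap, but here tumor 3 was highest and tumor 2 lowest. The log2 difference was 0.80 ± 0.17 (limma adjusted p = 0.0056), also past the threshold under all 16 alternatives. Signals were close to the blank, and the difference was 1.04 once the blank was subtracted (adjusted p = 0.0139). In a fit of the authors' deposited value table it was 1.20 (adjusted p = 0.0175). Over the whole array, groups without overlap and with every tumor higher occurred for 17.2% of the antibodies measured in all of these samples, against these 2 of 8 members.

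RPS6KA1_P-S380, the hydrophobic motif site, read 1.96, 1.35 and 0.857 in Ha-ras tumors 1 to 3 and 1.11, 0.789 and 0.835 in the controls. Tumors 1 and 2 lay above all controls, while tumor 3 lay between them. The log2 difference was 0.54 ± 0.24 (95% interval 0.02 to 1.06), with a limma adjusted p of 0.204. Without tumor 3 it was 0.85 (adjusted p = 0.018) and without tumor 1 it was 0.25 (adjusted p = 0.618), so single tumors decide its size and its call.

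The authors' deposited value table differed for this site. It gives each sample as log2 relative to the median of its own arm's controls, and there Ha-ras tumors 1 to 3 stood at 2.36, 2.18 and 2.08 for RPS6KA1_P-S380, which are 5.15, 4.54 and 4.22 times the control median, against controls at 0.87, -0.39 and 0. Tumor 3 is thus far above the controls in that table and level with them in the deposited intensities, where its RFI was 0.402 and the controls' 0.376 to 0.540. Fitted with limma, the authors' deposited table gave a log2 difference of 2.05 (adjusted p = 0.0003).

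For 6 of the 8 members the table could be rebuilt from the intensities in all 16 samples, by taking away 1 blank, multiplying by 1 factor per sample, taking log2 and setting the arm's control median to 0, with a largest deviation of 2e-09 log2. For RPS6KA1_P-S380 and RPS6KA4_P-S235 no blank gave a match, as for 12 of the 158 antibodies in all. The values of RPS6KA1_P-S380 therefore depend on which deposited form is read, and the cause was not tested.

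**Figure D2:**
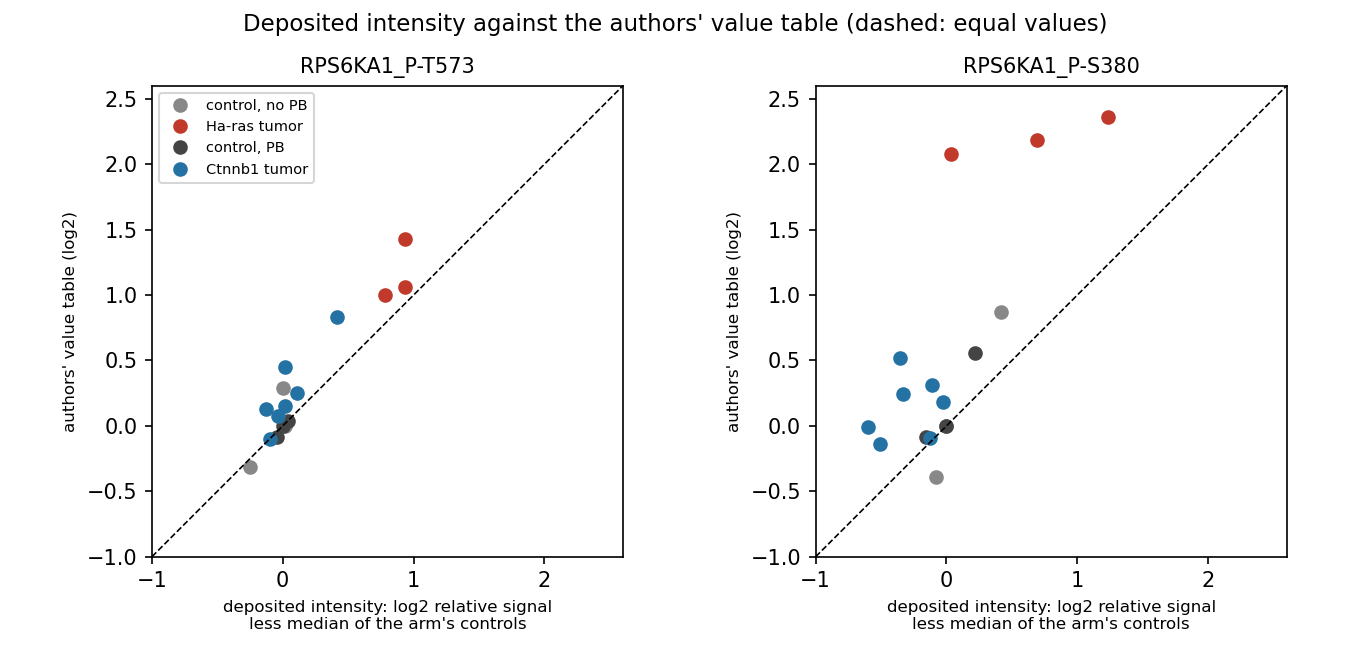
Each point is 1 sample. The x axis is the log2 relative signal from the deposited intensities less the median of the arm's own controls, the y axis the authors' log2 value, and the dashed line marks equal values. For RPS6KA1_P-T573 the 3 Ha-ras tumors span 0.78 to 0.94 on the x axis and 1.0 to 1.43 on the y axis, while for RPS6KA1_P-S380 the 3 Ha-ras tumors span 0.04 to 1.23 on the x axis and 2.08 to 2.36 on the y axis.

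Total RPS6KA1, the RSK1 protein, read 25.2, 23.1 and 16.6 in the Ha-ras tumors and 23.5, 24.2 and 20.8 in the controls. The groups overlapped on both sides, with a log2 difference of -0.10 ± 0.22 (adjusted p = 0.851). RPS6KA1_P-T573 divided by total RPS6KA1 was 0.194, 0.237 and 0.328 in tumors 1 to 3 and 0.122, 0.0989 and 0.139 in controls 1 to 3. The ratio has no unit and depends on both antibodies, so only its differences between samples can be read, and every tumor lay above every control. Its log2 difference was 1.06 ± 0.22, a 2.08-fold rise (limma adjusted p = 0.0045 over 45 pairs of a site and its total), where 4 of the 45 pairs passed (8.89%). Quantile normalization ended this call (0.76, adjusted p = 0.116).

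RPS6KA1_P-S380 divided by total RPS6KA1 was 0.0778, 0.0584 and 0.0516 in the tumors and 0.0475, 0.0325 and 0.0402 in the controls. These groups did not overlap, unlike those of the site alone, since tumor 3 also had the lowest RPS6KA1 of the 3 tumors. The log2 difference of 0.64 ± 0.30 did not pass the test (adjusted p = 0.141). How many of the 45 pairs separated without overlap, as this ratio and that of RPS6KA1_P-T573 did, was not counted. In this comparison 15 of the 45 pairs had an unadjusted limma p under 0.05.

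**Figure D3:**
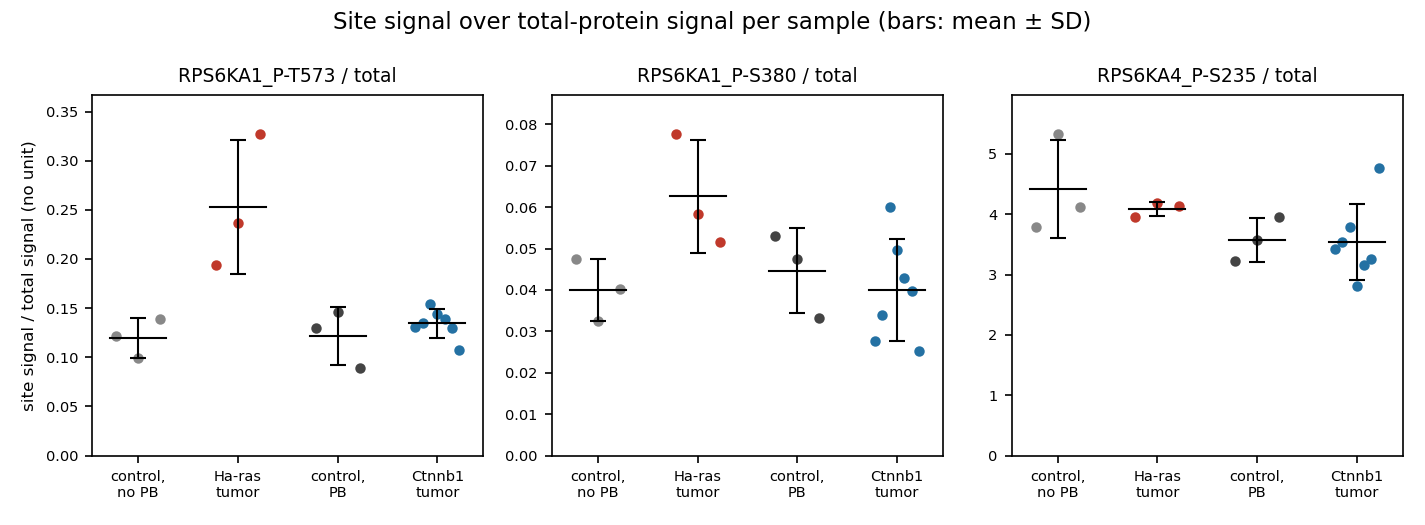
Ratio of site signal to total-protein signal (linear axis from 0) in each sample for the 3 pairs of a member site and its total, with the group mean and SD. For RPS6KA1_P-T573 the Ha-ras tumors lie between 0.194 and 0.328, above all other samples, whose highest value is 0.155.

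The MSK2 antibodies gave no difference past the threshold. Total RPS6KA4 read 0.728, 0.758 and 0.970 in the Ha-ras tumors and 0.850, 0.798 and 0.823 in the controls, so that tumors lay on both sides of the controls. The log2 difference was -0.02 ± 0.13, with a 95% interval from -0.30 to 0.26 (adjusted p = 0.943). RPS6KA4_P-S235 read 2.88, 3.17 and 4.01 against 3.22, 4.26 and 3.39, which overlapped (-0.11 ± 0.16, 95% interval -0.45 to 0.22, adjusted p = 0.755). Divided by total RPS6KA4, the site differed by -0.09 ± 0.18 (adjusted p = 0.784). The intervals exclude differences as large as that of RPS6KA1_P-T573.

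ELK1 read 2.06, 1.41 and 1.59 in the Ha-ras tumors and 3.93, 3.0 and 3.08 in the controls without PB. All 3 tumors lay below all 3 controls, a pattern that 8.92% of antibodies shared in this comparison. The log2 difference was -0.99 ± 0.23 (limma adjusted p = 0.0096). The call held under 14 of 16 alternatives. It ended when samples were scaled to the Alexa647 reference spots (-0.82, adjusted p = 0.0625) and in the authors' deposited table (-0.87, adjusted p = 0.0796). The antibody measures ELK1 protein, and no antibody to a phosphorylated ELK1 site was among the rows.

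DUSP4 read 0.342, 0.254 and 0.292 in the tumors and 0.261, 0.254 and 0.220 in the controls, close to the blank throughout. The groups overlapped, with tumor 2 below control 1, and the test was not passed (adjusted p = 0.303).

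**Figure D4:**
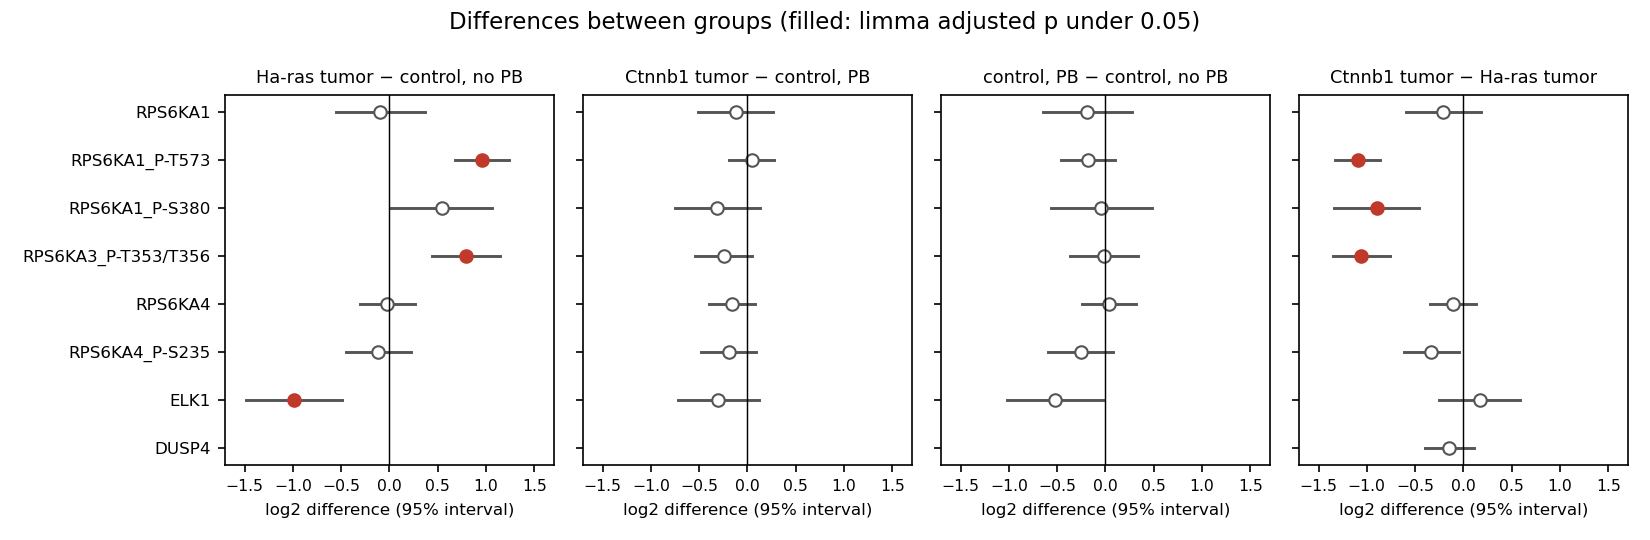
Log2 differences of the antibodies in 4 comparisons, with 95% intervals from limma, where DUSP4 is drawn only between the tumors because its controls lay under 2 times the blank. In the tumors DUSP4 was near its blank too (1.58 to 2.38 times in Ctnnb1 tumors, 1.46 to 2.28 times in Ha-ras tumors). Filled points have an adjusted p under 0.05: RPS6KA1_P-T573, RPS6KA3_P-T353/T356 and ELK1 in Ha-ras tumors against their controls, and the 3 RSK sites in the direct comparison of the tumors.

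The Ctnnb1 tumors were compared with control livers of the PB arm in the same way. None of the 8 members passed, and neither did any other antibody (0 of 158, which is 0%, by limma, with 25 antibodies at an unadjusted p under 0.05, and 1 call with sample weights). RPS6KA1_P-T573 read from 2.18 through a median of 2.42 to 3.20 in the 7 tumors and 2.46, 2.39 and 2.32 in control livers 4 to 6. Its log2 difference was 0.04 ± 0.11 (95% interval -0.19 to 0.28, adjusted p = 0.860), so the interval excludes a rise of the size seen in the Ha-ras tumors.

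RPS6KA1_P-S380 read from 0.572 through 0.686 to 0.849 in the Ctnnb1 tumors and 1.01, 0.776 and 0.864 in their controls (-0.31 ± 0.21, adjusted p = 0.426). RPS6KA3_P-T353/T356 read from 0.373 through 0.428 to 0.535 against 0.547, 0.565 and 0.450 (-0.25 ± 0.14, adjusted p = 0.382). For both sites 4 of 7 tumors lay below the lowest control, but the ranges overlapped and the tests were not passed.

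Of the other members in these tumors, total RPS6KA1 (14.1 to 24.5 in the tumors, 16.3 to 26.0 in the controls) differed by -0.12 ± 0.18. RPS6KA4 (0.624 to 0.908 against 0.825 to 0.865) differed by -0.16 ± 0.11, and RPS6KA4_P-S235 (2.20 to 3.12 against 2.72 to 3.41) by -0.19 ± 0.13. ELK1 read from 1.27 through 1.88 to 2.40 against 1.91, 2.40 and 2.70 (-0.30 ± 0.20, adjusted p = 0.426), and DUSP4 from 0.235 through 0.272 to 0.317 against 0.327, 0.344 and 0.270 (adjusted p = 0.335). In all, 7 of 8 differences were below 0, with a median of -0.21 where all antibodies had a median of -0.14. None of the 3 site-to-total ratios of members passed either (adjusted p 0.804 to 0.947), where 1 of 45 pairs did (2.22%).

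Control livers with PB were compared with those without it. DEN doses and ages could not be assigned to samples, so this compares the arms, and PB cannot be told apart from dose and age. None of the 8 members passed, where 3 of 158 antibodies did (1.9%). ELK1 was 1.91, 2.40 and 2.70 in control livers with PB and 3.93, 3.0 and 3.08 without, with no overlap (5.1% of antibodies had all PB livers lower). Its log2 difference of -0.52 ± 0.23 had an unadjusted p of 0.0411 and an adjusted p of 0.498. These 3 livers without PB are the same ones that the Ha-ras tumors were compared with.

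DUSP4 was 0.327, 0.344 and 0.270 with PB and 0.261, 0.254 and 0.220 without. These groups did not overlap either (21% of antibodies had all PB livers higher). The unadjusted p was 0.0232 and the adjusted p 0.366, and all 6 values lay under 2 times the blank. The RSK and MSK2 antibodies had log2 differences between -0.26 and 0.04. Of these, RPS6KA3_P-T353/T356 differed by -0.01 ± 0.17 and RPS6KA1_P-T573 by -0.18 ± 0.13.

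The tumors were then set against each other, which compares genotype and arm together. All 3 RSK sites were lower in Ctnnb1 tumors than in Ha-ras tumors, and none of the other members passed. RPS6KA1_P-T573 was 2.14-fold lower (log2 -1.10 ± 0.11, limma adjusted p = 2.75e-06), RPS6KA3_P-T353/T356 2.08-fold lower (-1.06 ± 0.14, adjusted p = 5.35e-05) and RPS6KA1_P-S380 1.86-fold lower (-0.90 ± 0.21, adjusted p = 0.0048). Every Ctnnb1 tumor lay below every Ha-ras tumor for these sites, a pattern of 10.3% of the antibodies. Among all 158 antibodies 30 passed (19%), 13.3% lower and 5.7% higher.

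That split of all calls, 9 higher and 21 lower, was 19 and 9 without centring and 11 and 10 with Alexa647 scaling. The 3 RSK sites stayed lower under each of these scalings, and RPS6KA1_P-S380 missed the threshold without centring (-0.63, adjusted p = 0.0681). For RPS6KA1_P-S380 the margin between the groups was small, with the highest Ctnnb1 tumor at 0.849 and Ha-ras tumor 3 at 0.857.

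RPS6KA4_P-S235 was 2.20 to 3.12 in Ctnnb1 tumors and 2.88 to 4.01 in Ha-ras tumors (-0.33 ± 0.13, adjusted p = 0.0977). ELK1 did not differ past the threshold between the tumors, with a log2 difference of 0.17 ± 0.20 (95% interval -0.25 to 0.59, adjusted p = 0.635). Neither did DUSP4 (-0.15 ± 0.12, near its blank in both tumor types), RPS6KA1 (-0.21 ± 0.18) or RPS6KA4 (-0.11 ± 0.11). Relative to total RPS6KA1, RPS6KA1_P-T573 was 1.85-fold lower in Ctnnb1 tumors (-0.89 ± 0.18, adjusted p = 0.0032, with 10 of 45 pairs past the threshold, 22.2%). This is the one called member result that turned sign under an alternative, to 0.17 (adjusted p = 0.639) after quantile normalization, under which total RPS6KA1 itself was at -1.13 (adjusted p = 0.0098). RPS6KA1_P-S380 relative to total RPS6KA1 was at -0.69 ± 0.25 (adjusted p = 0.0549).

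Whether a member answered differently in the 2 tumor types was tested as the Ha-ras difference less the Ctnnb1 difference, each against its own controls. RPS6KA1_P-T573 (0.92 ± 0.17, limma adjusted p = 0.0069) and RPS6KA3_P-T353/T356 (1.04 ± 0.22, adjusted p = 0.0105) passed, among 8 of 158 antibodies (5.06%). Of 25 alternatives, 23 kept the call of the first and 21 that of the second, and with Alexa647 scaling (adjusted p = 0.113 for each) and in the authors' deposited table (adjusted p = 0.157 and 0.216) both calls ended. RPS6KA1_P-S380 had a difference of similar size, 0.86 ± 0.32, which did not pass (adjusted p = 0.146). It passed under 4 of 25 alternatives, with 1.16 (adjusted p = 0.0207) without Ha-ras tumor 3 and 2.06 in the authors' deposited table, and was 0.57 without tumor 1. DUSP4 (adjusted p = 0.143) and ELK1 (-0.69 ± 0.30, adjusted p = 0.237) did not pass, and RPS6KA1, RPS6KA4 and RPS6KA4_P-S235 had differences of 0.02, 0.14 and 0.08. No member ratio to total passed, with RPS6KA1_P-T573 at 0.89 ± 0.29 (adjusted p = 0.104), where 4.44% of the pairs did.

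Upstream of RSK, the activating site of ERK1, MAPK3_P-T202/Y204, read 13.0, 17.7 and 7.22 in Ha-ras tumors 1 to 3 and 3.10, 2.76 and 2.97 in the controls. Among the Ha-ras tumors the order of the ERK1 site (2, 1, 3) was not that of any of the RSK sites: RPS6KA1_P-T573 ran 2, 3, 1 with tumors 2 and 3 nearly level, RPS6KA3_P-T353/T356 ran 3, 1, 2 and RPS6KA1_P-S380 ran 1, 2, 3. With 3 tumors this is a description only. Against the controls the ERK1 site rose 4.02-fold (log2 2.01 ± 0.24, adjusted p = 8.15e-05).

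**Figure D5:**
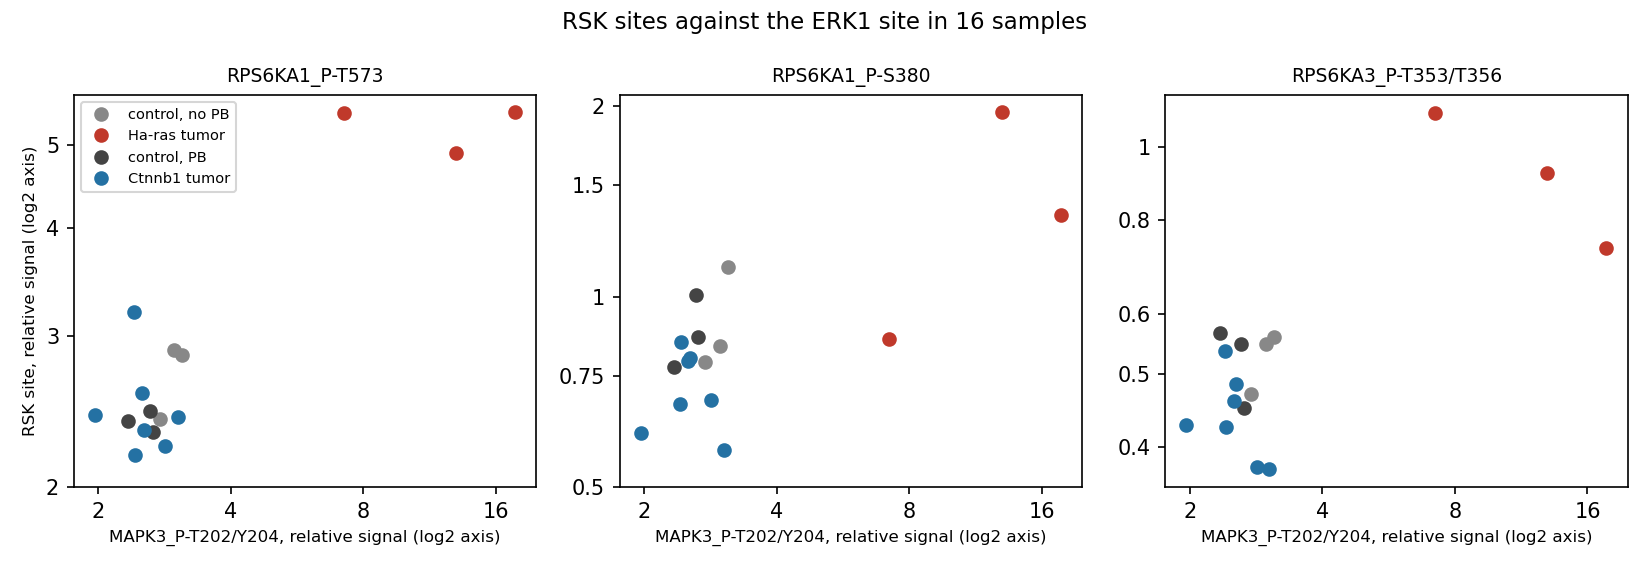
Relative signal of the 3 RSK sites (y axes, log2 scaled) against that of the ERK1 site MAPK3_P-T202/Y204 (x axes, log2 scaled) in the 16 samples, coloured by group. The Ha-ras tumors form a cluster at 7.22 to 17.7 on the ERK1 site, apart from all other samples at 1.96 to 3.10.

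Because the Ha-ras tumors form a separate cluster, the relation of each member site to the ERK1 site was tested only within the 7 Ctnnb1 tumors, as 4 relations with exact two-sided permutation tests. Pearson's r was -0.18 for RPS6KA1_P-T573 (p = 0.655, Spearman's rho -0.39, p = 0.396), -0.08 for RPS6KA1_P-S380 (p = 0.866, rho -0.07, p = 0.906), -0.45 for RPS6KA3_P-T353/T356 (p = 0.317, rho -0.57, p = 0.20) and 0.05 for RPS6KA4_P-S235 (p = 0.933, rho -0.29, p = 0.556). The adjusted p was 0.933 for each r and 0.741 to 0.906 for the rho values, so no relation was detected with 7 tumors. Without the 2 tumors farthest from the median of the ERK1 site, r was -0.47, -0.40, -0.75 and -0.51 in the same order. With Alexa647 scaling these were 0.81, 0.35, 0.61 and 0.95. The 2 tumors were picked anew under each scaling, so the change of sign cannot be laid to the scaling alone.

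Of 17 antibodies to the inputs of the cascade (10 of 16 listed symbols), 2 were higher and none lower in Ha-ras tumors against their controls, where 10.1% of all antibodies were higher and 3.8% lower. Besides the ERK1 site these were MAP2K1_P-S217/S221, the activation loop of MEK1 (1.71-fold, adjusted p = 0.0084). Total MAPK3 (0.52 ± 0.19, adjusted p = 0.0848), MAP2K1 (-0.29 ± 0.23) and MAP2K2 (-0.09 ± 0.14) did not pass. The median of the 17 was -0.04, beside -0.00 for all antibodies.

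Of 23 antibodies to proteins reported as substrates of RSK or MSK (8 of 25 listed symbols), 5 were higher and none lower, beside the same 10.1% and 3.8% of all antibodies. They were GSK3B_P-S9, an inhibitory site of the kinase GSK3β (2.40-fold, adjusted p = 0.0097), MTOR_P-S2448 (1.79-fold, adjusted p = 0.0024), STAT3_P-S727 (1.60-fold, adjusted p = 0.0144), and total STAT3 (1.54-fold) and GSK3B (1.31-fold). Relative to their totals, the sites did not pass, at 0.88 ± 0.30 for GSK3B_P-S9 (adjusted p = 0.0534), 0.45 ± 0.17 for MTOR_P-S2448 (adjusted p = 0.0884) and 0.06 ± 0.20 for STAT3_P-S727 (adjusted p = 0.842). RPS6_P-S235/S236, a ribosomal protein site shared by RSK and S6 kinase, was at 0.99 ± 0.51 (adjusted p = 0.301). The histone sites credited to MSK were at -0.59 ± 0.30 for HIST1H3A_P-S10 (adjusted p = 0.301) and -0.07 ± 0.14 for HIST1H3A_P-S28. The list was made by protein and not by site, so a site named here need not be one that RSK or MSK phosphorylates. Other kinases act on these sites, and the part of RSK in them was not tested. The median of the 23 was 0.11.

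Of 6 antibodies to PDK1, AKT1 and RPS6KB1, kinases that share regulators or target motifs with RSK, PDK1_P-S241 was higher (1.30-fold, adjusted p = 0.0144), while RPS6KB1_P-T389 (0.54 ± 0.36, adjusted p = 0.445) and AKT1_P-S473 (-0.18 ± 0.18, adjusted p = 0.698) did not pass. Of 7 antibodies to stress kinases and JUN, MAPK8_P-T183/Y185, the activating site of JNK (1.85-fold, adjusted p = 0.0097), and JUN (1.55-fold, adjusted p = 0.0368) were higher. Of all antibodies, 10.1% were higher in this comparison. Relative to their totals, PDK1_P-S241 (0.35 ± 0.16, adjusted p = 0.134) and MAPK8_P-T183/Y185 (0.58 ± 0.25, adjusted p = 0.123) did not pass. MAPK14_P-T180/Y182, the activating site of p38, which also acts on MSK, was at -0.32 ± 0.21 (adjusted p = 0.421). In Ctnnb1 tumors against PB controls, and in PB against no-PB controls, no antibody of these 4 lists passed.

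Over the 16 samples, the antibodies most like each member were ranked by Pearson's r of the log2 relative signals, as a description. All of these values share the array and the sample centring. RPS6KA1_P-T573 was nearest to MAPK3_P-T202/Y204 (r = 0.91), RPS6KA3_P-T353/T356 (0.90) and GSK3B (0.83). With the group means removed, r fell to -0.06 for MAPK3_P-T202/Y204 and was 0.54 for RPS6KA3_P-T353/T356 and 0.81 for GSK3B. RPS6KA1_P-S380 was nearest to HIST1H3A_DM-K4 (0.79), PRKAA1_P-T172 (0.78) and MAPK3_P-T202/Y204 (0.76), and its r with RPS6KA1_P-T573 was 0.63, or -0.15 with the group means removed.

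RPS6KA4 was nearest to HIST1H4A_A-K8 (r = 0.93, and 0.92 with the group means removed), an acetylated histone H4 site. RPS6KA4_P-S235 was nearest to PPARA_2 (0.70), ELK1 to PIK3R1 (0.67), DUSP4 to NFKBIA_P-S32 (0.77) and total RPS6KA1 to ITGAV (0.60). Total RPS6KA1 and RPS6KA1_P-T573 had an r of 0.28, and RPS6KA4 and RPS6KA4_P-S235 one of 0.43.

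By group mean, the order of RPS6KA1_P-T573 was Ha-ras tumors (5.27 ± 0.32, SD, n = 3), controls without PB (2.71 ± 0.27, n = 3), Ctnnb1 tumors (2.48 ± 0.34, n = 7) and controls with PB (2.39 ± 0.07, n = 3), where the last 3 overlap. RPS6KA3_P-T353/T356 had Ha-ras tumors first (0.922 ± 0.19) and the controls without PB (0.525 ± 0.05), those with PB (0.521 ± 0.06) and the Ctnnb1 tumors (0.440 ± 0.06) after them with overlapping ranges. ELK1 had the controls without PB first (3.34 ± 0.51), then the controls with PB (2.33 ± 0.40), the Ctnnb1 tumors (1.92 ± 0.43) and the Ha-ras tumors (1.69 ± 0.34), the last 3 overlapping from 1 neighbour to the next. Total RPS6KA1 ran from 22.8 ± 1.83 in controls without PB through 21.6 ± 4.47 in Ha-ras tumors and 20.4 ± 5.01 in controls with PB to 18.7 ± 3.62 in Ctnnb1 tumors, and each neighbour lay within 1 SD of the next.

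Among the hepatocyte antibodies measured beside these results, CYP2E1_1 read 0.283 to 0.380 in Ha-ras tumors and 1.23 to 1.37 in their controls, CYP2E1_2 read 3.28 to 4.70 against 16.8 to 38.2, and CYP1A2_1 read 0.915 to 1.33 against 3.41 to 4.15. These 3 did not overlap, with the tumors lower, as for 8.92% of all antibodies in this comparison. PPARA_3 (0.263 to 0.305 against 0.307 to 0.345) was lower without overlap too, with all 3 tumors under 2 times its blank. The other CYP1A2 antibody, CYP1A2_2, overlapped (0.720 to 0.873 against 0.747 to 0.863). So did PPARA_1 (0.237 to 0.412 against 0.340 to 0.396) and PPARA_2 (2.36 to 3.38 against 2.44 to 2.53). HNF4A (3.15 to 3.53 against 2.90 to 3.32) and GLUL (0.0595 to 6.55 against 2.23 to 12.1) overlapped. GLUL was under 2 times its blank in 2 of the 3 Ha-ras tumors. CDH2, which hepatocytes express as well as other cells, read 10.0 to 21.7 against 9.13 to 12.5 and overlapped too, and it was the one listed marker of other cell types among the antibodies. The part of these proteins in the differences of the RSK sites and ELK1 was not tested.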

How the data were processed

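Per the labels' protocols, frozen tissue was lysed in an 8-fold excess of buffer and read on a Zeptosens reverse-phase protein array. The deposited sample files hold an intensity per antibody, blank and Alexa647 reference row, with any earlier scaling by the authors not stated. The authors' deposited value table holds log2 values relative to each arm's controls. It was used as an alternative for comparisons within an arm only. Intensities were log2 transformed and centred per sample on the median of the 155 antibodies with only positive values. Another 3 values, none in the 8 antibodies, were not positive and left out. No blank was subtracted, which understates differences of dim antibodies. Group means of all 16 samples were fitted with limma 3.58.1 (R 4.3.3), with adjustment over 158 antibodies or 45 site-to-total pairs, and the fit was tested on simulated data. Exact permutation tests used SciPy 1.17.1. The blanks were matched through the authors' table, and this and the limit of 2 times the blank were chosen after seeing the data. The antibodies, gene lists and tests were chosen with earlier results of these data known. Antibodies named beside the 8 are the ERK and MEK rows, the listed antibodies past the threshold with at most 4 others a list, and the 3 most like each of the 8. One antibody that this rule names is not reported here. Alternatives covered scaling, blanks (RPS6KA1_P-S380 and RPS6KA4_P-S235, with no matched blank, stayed unsubtracted), dim antibodies, weights, samples, blocks and the authors' table. Replicate numbers come from the titles. Deviations of same-numbered samples correlated at 0.09 to 0.65 (Ha-ras arm), 0.07 to 0.23 (PB arm) and -0.25 to 0.04 (between tumors). Samples of different numbers were not compared in this way, so pairing was not settled. The main fit did not take the numbers as pairs, and the replicate block was run as an alternative.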

Additional observations from a re-analysis of the deposited data

Results flagged for a closer look

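The effect of the tumor on RPS6KA1_P-T573 differed between the tumor types by 0.92 on the log2 scale (limma adjusted p = 0.0069), higher in 3 of 3 Ha-ras tumors than in any control of their arm, while the Ctnnb1 tumors overlapped their controls. The effect on RPS6KA3_P-T353/T356 differed by 1.04 (adjusted p = 0.0105), again with 3 of 3 Ha-ras tumors above their controls. Tumor type and PB arm go together in both. Both calls ended with Alexa647 scaling and in the authors' deposited table, and that of RPS6KA3_P-T353/T356 also with blanks subtracted and with that table centred per sample. Among the 7 Ctnnb1 tumors, none of the 8 antibodies had a sample far enough from the others to be singled out by Dixon's test on log2 values. For RPS6KA1_P-T573 this was close to the limit, with tumor 1 at 3.20, the next tumor at 2.57 and the lowest at 2.18.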

How the results depend on the processing

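Of 977 values of the 8 antibodies and 3 ratios under alternatives, 924 kept their direction and side of the threshold or moved within the spread. Another 10 lost a call, 18 gained one and 1 reversed, and 24 without a call changed sign by more than the SE. In all, 81 values changed sign. ELK1 in Ha-ras tumors lost its call with Alexa647 scaling (-0.82) and the authors' table (-0.87). RPS6KA1_P-S380 lost its call between tumors without centring (-0.63), and gained one against controls with sample weights (0.86), the authors' table (2.05, or 1.88 centred per sample, an alternative added after seeing the data) and without Ha-ras tumor 3 (0.85). For the difference of tumor effects, RPS6KA1_P-T573 missed the threshold with Alexa647 scaling (0.88) and the authors' table (0.90), and RPS6KA3_P-T353/T356 with these (1.01 and 1.14), blank subtraction (1.17) and the centred table (1.10). Quantile normalization reversed RPS6KA1_P-T573 relative to RPS6KA1 between tumors (0.17) and ended its call against controls (0.76, adjusted p = 0.116). Alexa647 scaling turned r of RPS6KA1_P-T573 with the ERK1 site from -0.18 to 0.25. The cause was not tested.

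Counts over all antibodies that moved by over 1.5 times were, for Ctnnb1 tumors against controls, 1 with sample weights (0 in the main setting); for PB, 5 without centring, 8 with only the compared groups and 5 with sample weights (3); and for the difference of tumor effects, 3 with Alexa647 scaling, 5 with blank subtraction, 17 with sample weights and 3 in the authors' table (8). For site-to-total ratios they were, in Ha-ras tumors, 8 by quantile normalization and 11 with the replicate block (4); in Ctnnb1 tumors, 0 under 6 alternatives (1); for PB, 1 by quantile normalization (0); and between tumors, 6 with only the compared groups and 6 with the block (10). With 1 sample left out, ratio counts ranged from 2 to 5 (Ha-ras), 0 to 1 (Ctnnb1), 0 to 1 (PB), 3 to 11 (between tumors) and 1 to 2 (difference). The replicate block gained 1 call among the 8 antibodies and their ratios, RPS6KA1_P-S380 relative to RPS6KA1 in Ha-ras tumors (0.64, adjusted p = 0.0349), and left RPS6KA1_P-T573 at 0.96 (adjusted p = 0.0065).

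DUSP4, near its blank, can show only large differences.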
